A study of Mus musculus with 6 samples.

Results

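Platelet-derived growth factors (PDGFs) are secreted dimers that act on 2 receptor tyrosine kinases. The genes of the ligands, Pdgfa, Pdgfb, Pdgfc and Pdgfd, and of the receptors, Pdgfra and Pdgfrb, were chosen by name and followed as 6 genes among the 31063 of the matrices from dendritic cell (DC) cultures and the 31065 entries of those from wounds. PDGF-A and PDGF-B are cut by furin-like convertases inside the cell, while PDGF-C and PDGF-D leave it in a latent form that extracellular proteases such as the plasminogen activators open. PDGF-A and PDGF-C act mainly through PDGFRα, the receptor of dermal fibroblasts, PDGF-B acts through both receptors, and PDGF-D mainly through PDGFRβ, the receptor of pericytes and smooth muscle. In skin wounds PDGFs are known to draw in and expand fibroblasts, and endothelial PDGF-B is known to hold pericytes on new vessels.

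The data were droplet 3′ single-cell RNA libraries, 1 for each of 6 conditions. Bone marrow of wild-type C57/BL6 mice was differentiated into DCs that were left untreated, exposed on culture day 7 to vitamin D3 (calcitriol, VD3), 1e-06 M over 24 h, or made Ndrg2-KO by nucleofection of Cas9 with 3 guides against Ndrg2. No nucleofection was described for the untreated and VD3 stimulated DCs, so editing and nucleofection cannot be told apart where Ndrg2-KO DCs are set against either. Splinted excisional wounds of mice 6 weeks old received pullulan-collagen hydrogels that were blank or held control DCs or Ndrg2-KO DCs, and tissue of 5 mice a group was taken on day 10 for 1 library each. The control DCs are labelled untreated, whereas the methods describe nucleofection with 3 non-targeting guides. The study used wild-type C57BL/6J and C57/BL/6-db/db mice and timed this tissue by the closure of wild-type wounds, but did not name the strain beside these libraries. Seeded DCs cannot be told from those of the host.

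Cells with at least 300 genes, under 100000 unique molecular identifiers (UMIs) and under 10% mitochondrial UMIs were kept, 24051 from the cultures and 11032 from the wounds. The kept depth was 116461484 to 143627482 UMIs in the DC libraries, with medians of 12089 to 16316 per cell, and 29675507 to 49240341 UMIs in the wound libraries, with medians of 4415 to 10795. Any pair of libraries shared 1 to 19 cell barcodes. Ndrg2, the edited gene, stood at 4.62, 1.42 and 0.884 counts per 1e+06 UMIs (CPM) in untreated, VD3 stimulated and Ndrg2-KO DCs. As 3′ ends are counted, small edits are not seen in these counts. The DC gene Itgax was at 77.8 to 263 CPM in the cultures, and the fibroblast genes Col1a1, Col1a2, Col3a1, Dcn, Lum, Dpt, Postn and Fbn1 summed there to at most 2.98 CPM. With 1 library a condition nothing was tested. Brackets hold exact 95% intervals that cover counting error only, and a gene was called apart at a 2-fold difference in CPM where both libraries held at least 50 UMIs together.

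On GRCm38 of the mouse genome the members lay as follows: Pdgfa (ENSMUSG00000025856) at 138976014-138997370 of chromosome 5, Pdgfb (ENSMUSG00000000489) at 79995874-80014977 of chromosome 15, Pdgfc (ENSMUSG00000028019) at 81036416-81214040 of chromosome 3, Pdgfd (ENSMUSG00000032006) at 6168584-6378850 of chromosome 9, Pdgfra (ENSMUSG00000029231) at 75152292-75198215 of chromosome 5 and Pdgfrb (ENSMUSG00000024620) at 61045150-61085061 of chromosome 18. Pdgfa and Pdgfb are on the minus strand and the others on the plus strand.

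In the cultures the family was represented by 3 ligands. Pdgfa was at 13.9 (13.3 to 14.5) CPM in untreated, 131 (129 to 134) in VD3 stimulated and 15.5 (14.9 to 16.2) in Ndrg2-KO DCs. Pdgfb was at 12.8 (12.2 to 13.4), 42.9 (41.7 to 44.1) and 30.9 (30.0 to 31.8) CPM in the same order. Pdgfc was at 1.49 (1.29 to 1.71), 0.464 (0.348 to 0.605) and 6.69 (6.27 to 7.13) CPM. VD3 stimulated DCs were the highest and untreated DCs the lowest for Pdgfa and Pdgfb, whereas Ndrg2-KO DCs were the highest and VD3 stimulated DCs the lowest for Pdgfc.

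Pdgfd and the receptors were at or near the floor in these cells. Pdgfd had 0 UMIs in every DC library, where 3 UMIs would be 0.0209 to 0.0258 CPM. Pdgfra had 1 UMI in each DC library. Pdgfrb had 28, 9 and 35 UMIs in untreated, VD3 stimulated and Ndrg2-KO DCs, or 0.211, 0.0773 and 0.244 CPM. Of its UMIs 26 fell in premature DC-like and 28 in proliferation-like cells, and 0 in the 8316 mature DC-like cells, where 3 UMIs would be 0.0255 CPM.

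**Figure D1:**
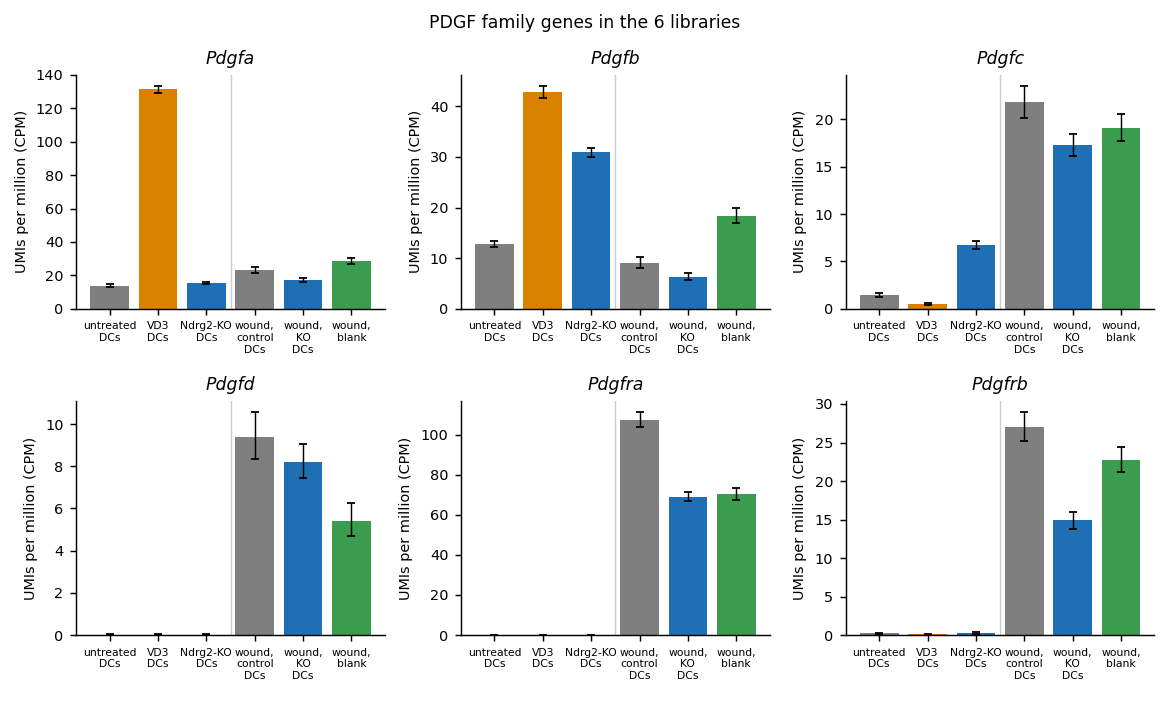
CPM (bars from 0) of the 6 members in the 3 DC libraries and the 3 wound libraries, with exact 95% Poisson intervals as lines. Pdgfa reached 131 CPM in VD3 stimulated DCs, Pdgfc was at 17.2 to 21.8 CPM in the wounds, and Pdgfd and Pdgfra had at most 1 UMI in any DC library.

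VD3 stimulated DCs held more Pdgfa and Pdgfb and less Pdgfc than untreated DCs. The difference was 3.24 (3.17 to 3.31) on the log2 scale or 9.46-fold for Pdgfa, 1.75 (1.67 to 1.83) or 3.36-fold for Pdgfb, and -1.68 (-2.14 to -1.24) for Pdgfc. So 2 of the 3 members with enough UMIs were at least 2-fold higher, against 4.18% of 13113 genes, and 1 was at least 2-fold lower, against 7.44%. As far above as Pdgfa lay 57 of those genes. Cyp24a1, the vitamin D-degrading enzyme and a textbook target of the vitamin D receptor, was at 0.00754, 315 and 0 CPM in untreated, VD3 stimulated and Ndrg2-KO DCs.

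Ndrg2-KO DCs showed another ligand pattern. Against untreated DCs, Pdgfc was higher by 2.17 (1.95 to 2.40) on the log2 scale or 4.50-fold and Pdgfb by 1.27 (1.19 to 1.36) or 2.42-fold, while the difference was 0.16 (0.07 to 0.25) for Pdgfa and 0.21 (-0.55 to 0.98) for Pdgfrb. That made 2 of 4 members at least 2-fold higher, against 10.2% of 13329 genes, and 0 lower, against 9.28%. Both comparisons share the untreated library. Against VD3 stimulated DCs, the log2 difference was 3.85 (3.46 to 4.27) for Pdgfc, -3.08 (-3.15 to -3.02) for Pdgfa and -0.47 (-0.53 to -0.41) for Pdgfb. There 1 of 3 members was called higher, against 13% of 13235 genes, and 1 lower, against 9.21%.

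Clustering, with the members kept out of the genes used, split the cultured cells into 16 clusters that were named from marker lists. The names used are premature DC-like (cluster 0, with Csf1r, Ccr2, Lyz2 and Fn1), mature DC-like (clusters 1, 2, 5 and 12, all with Cacnb3 and all but cluster 12 with Ccr7), proliferation-like (3, 6 and 10), granulocyte or monocyte-like (4), macrophage-like (8, with C1qa, Adgre1 and Ms4a7), cDC1-like (14) and basophil-like (15). Cluster 0 passed 5 premature DC markers, but not Cx3cr1, Cd34 and Chil3 of that list. It also passed 3 macrophage markers and was led by Arg1, Mamdc2, Apoe and Fabp4. Clusters 7, 9, 11 and 13 stayed unnamed. Most clusters came mainly from 1 library, so that a state and a treatment often cannot be told apart, and levels were compared inside a cluster only where each library gave at least 50 cells.

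Pdgfa in the cultures sat mostly in VD3 stimulated cells outside the clusters named mature DC-like. Its highest level was that of macrophage-like cells, 286 (279 to 294) CPM in 1135 VD3 stimulated cells, whose leading genes also included Gdf15, Ms4a7, Ccl4 and Hbegf. Cluster 7, led by the granule protease genes Elane and Prtn3 of myeloid progenitors, was at 227 (222 to 233) CPM in 1100 such cells. Cluster 13 had leading genes of the macrophage-like cluster 8 (Ms4a7, Gdf15 and Hbegf) and of the mature DC-like cluster 1 (Olfr920, Pdcd4, Pou4f1, H2-Q6 and H2-Q7), a median of 28168 UMIs against 15180.5 and 13684 in those, and was at 127 (120.0 to 135) CPM in 293. The part of doublets in cluster 13 was not tested. Cluster 8 held 36.0% (35.3 to 36.8), cluster 7 41.3% (40.5 to 42.04) and cluster 13 7.14% (6.74 to 7.56) of the Pdgfa UMIs of VD3 stimulated DCs. Together they held 84.4% (83.9 to 85.0) of them in 28.6% of the cells, which carried 47.8% of all UMIs. Pooled over the libraries, they were also the highest for Cyp24a1, at 513, 697 and 236 CPM in clusters 8, 7 and 13. Cluster 3 followed at 181 CPM, with 1459 of its 2132 cells VD3 stimulated. As clusters hold different parts of VD3 stimulated cells, these pooled values give no order among those cells.

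The excess of Pdgfa in VD3 stimulated DCs was not limited to those 3 clusters. The other VD3 stimulated cells were at 39.2 CPM, 2.82-fold over the whole untreated library, or 1.496 (1.41 to 1.58) on the log2 scale. Mature DC-like cells were at 15.7 (14.5 to 16.9) CPM in untreated, 35.2 (33.6 to 36.9) in VD3 stimulated and 20.7 (19.0 to 22.5) in Ndrg2-KO DCs, mainly from clusters 2, 1 and 5 respectively. Premature DC-like cells of the Ndrg2-KO culture were at 15.3 (14.4 to 16.1) CPM.

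Inside 6 clusters that held both libraries, Pdgfa was higher with VD3 beyond the counting interval in 5. It stood at 227 against 1.16 CPM in cluster 7, where the untreated value rests on 3 UMIs in 98 cells and the log2 difference was 7.61 (6.07 to 9.89). Proliferation-like cluster 3 was at 119 (108 to 132) against 6.60 (3.41 to 11.5) CPM. cDC1-like cells were at 80.3 (68.0 to 94.1) against 6.34 (2.55 to 13.1) CPM. These 3 clusters thus shared a high level with VD3 and a low one without.

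Smaller differences were seen elsewhere. Basophil-like cells were at 41.3 (27.9 to 59.0) against 4.96 (1.02 to 14.5) CPM, the latter from 3 UMIs. Granulocyte or monocyte-like cells were at 10.1 (7.31 to 13.5) against 3.62 (2.11 to 5.80) CPM. In mature DC-like cluster 12 the log2 difference of 0.85 (-0.41 to 2.32) included 0. In proliferation-like cluster 6, Ndrg2-KO cells were below untreated cells, at 2.42 (0.785 to 5.64) CPM from 5 UMIs in 129 cells against 13.1 (12.2 to 14.1) CPM.

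Mitochondrial content, depth and platelet genes were set beside these clusters. Clusters 7, 8 and 13 had median mitochondrial shares of 6.33%, 7.04% and 6.89%, and 19.7%, 8.61% and 10.8% of their cells were under 5%. Cluster 7 held 32.6% (32.0 to 33.3) of the Pdgfa UMIs of all cultures, and when cells over 5% were left out before clustering, 237 of its 1205 cells remained and formed no cluster of their own, which took the share under that name to 0%. Of these, 153 fell into a cluster mostly of proliferation-like cells, which held 8.05% (7.003 to 9.20) of the remaining Pdgfa UMIs at 9.95 CPM. Of the 775 cells of that cluster 93 were VD3 stimulated, so this level is not one of VD3 stimulated cells. With all cells over 5% left out, the log2 difference of Pdgfa between VD3 stimulated and untreated DCs was 2.71. Cluster 3 was shallow, with a median of 2024 UMIs and 0.243% of them mitochondrial. Of the 6 platelet genes, Pf4 was at 279, 774 and 297 CPM in clusters 7, 8 and 13 and at 7.87 to 1359 over all clusters but 15, and Ppbp at 2.13, 4.64 and 1.22 CPM against up to 144 elsewhere. Outside cluster 15, Itga2b was at most 4.67, Treml1 3.92, Gp9 0.131 and Gp1bb 0.0655 CPM, and in that cluster Pf4 stood at 10116, Itga2b at 463 and Gp9 at 53.2 CPM. Clusters 0, 9 and 10 had more Pf4 than clusters 7, 8 and 13. The part of depth, mitochondrial content and platelet genes in the Pdgfa levels of single clusters was not tested.

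Pdgfb in the cultures was held by several states. Mature DC-like cells held 47.9% (47.0 to 48.8) of its UMIs over the libraries, and 38.5% (36.2 to 40.9) in untreated, 60.4% (59.0 to 61.7) in VD3 stimulated and 37.5% (36.0 to 38.9) in Ndrg2-KO DCs. They carried 30.0% of all UMIs and were at 15.6 (14.4 to 16.9) CPM in untreated, 59.8 (57.7 to 62.0) in VD3 stimulated and 65.1 (62.0 to 68.3) in Ndrg2-KO DCs. Both treated cultures stood above the untreated one, by 3.83-fold and 4.17-fold. cDC1-like cells were at 35.3 (25.1 to 48.3) CPM in untreated and 68.6 (57.3 to 81.5) in VD3 stimulated DCs. Unnamed cluster 9, led by Plet1 and Cxcl3 and held almost wholly by the untreated library, was at 19.3 (17.6 to 21.1) CPM there, above untreated mature DC-like cells, with 28.4% (26.2 to 30.6) of that library's Pdgfb UMIs. In cluster 2, where most untreated mature DC-like cells lay, 155 Ndrg2-KO cells were at 60.0 (48.0 to 74.1) CPM against 15.5 (14.3 to 16.8) in 2596 untreated cells, so the excess was also seen there.

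Most other culture states held less Pdgfb. Premature DC-like cells of the Ndrg2-KO culture were at 27.2 (26.1 to 28.4) CPM and held 51.2% (49.7 to 52.7) of its Pdgfb UMIs. Clusters 7 and 8 of the VD3 library were at 25.8 (23.9 to 27.7) and 33.3 (30.7 to 35.9) CPM, so the clusters that led for Pdgfa did not lead for Pdgfb, and cluster 13 was at 51.9 (47.2 to 56.9). Proliferation-like cells were at 8.90 (8.13 to 9.71), 8.96 (6.04 to 12.8) and 15.8 (14.4 to 17.3) CPM in untreated, VD3 stimulated and Ndrg2-KO DCs. These came mainly from clusters 6, 3 and 10 respectively, so the values are not a comparison inside a cluster. Granulocyte or monocyte-like cells had 8 UMIs in 2071 cells of the 3 libraries, or 0.870 (0.376 to 1.71) CPM.

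Pdgfc in the cultures was largely a transcript of Ndrg2-KO cells. Premature DC-like cells, of which 4069 of 4074 were Ndrg2-KO, held 42.7% (39.9 to 45.6) of its UMIs at 6.20 (5.68 to 6.76) CPM in that library, and mature DC-like cells held 38.5% (35.8 to 41.3). With classes from each cell's own markers, premature DC-like cells held 19.7%. The highest Pdgfc level was in mature DC-like cells of the Ndrg2-KO culture, 13.6 (12.2 to 15.1) CPM, against 2.08 (1.67 to 2.57) in untreated and 0.674 (0.467 to 0.942) in VD3 stimulated DCs. Most of these Ndrg2-KO cells formed cluster 5, and those in cluster 2, the cluster of the untreated cells, were at 2.09 CPM (3 UMIs) against 2.01, a log2 difference of 0.06 (-2.25 to 1.65). The excess was therefore not seen in cluster 2, where few UMIs bear on it.

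Proliferation-like cells were at 3.20 (2.59 to 3.90) CPM of Pdgfc in Ndrg2-KO and 0.939 (0.703 to 1.23) in untreated DCs. The former lay mainly in cluster 10 (1063 cells) and the latter in cluster 6 (1681 cells), so this is not a comparison inside a cluster. No Pdgfc UMI was seen in granulocyte or monocyte-like or in cDC1-like cells, where 3 UMIs would be 0.326 and 1.001 CPM.

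**Figure D2:**
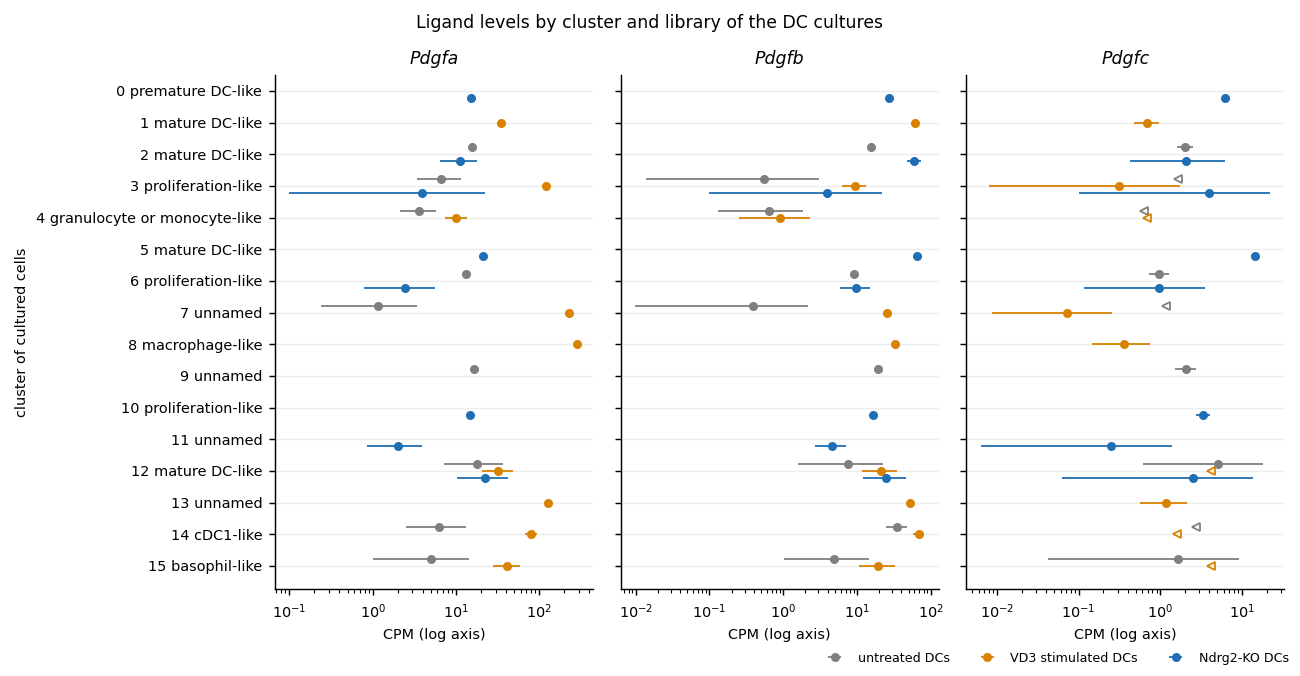
CPM of Pdgfa, Pdgfb and Pdgfc in the culture clusters, by library where it gave at least 50 cells, on log axes, with exact 95% Poisson intervals and open triangles at the level of 3 UMIs where none were seen. Clusters 7 and 8 of VD3 stimulated DCs reached 227 and 286 CPM of Pdgfa, and cluster 5 of Ndrg2-KO DCs stood at 66.1 CPM of Pdgfb and 14.4 of Pdgfc.

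As Pdgfa carried the largest difference between VD3 stimulated and untreated DCs among the members, the 250 bases before each of its 2 RefSeq starts (GRCm38.p6, minus strand) are shown. Both windows lie inside the span given above for Pdgfa, which on this strand begins at 138997370. The bases before that position were not searched. Capitals mark the only match, on either strand, to the hexamer AGGTCA, the hexamer AGTTCA, the hexamer GGGTCA or the hexamer GGTTCA, from which the vitamin D response element is built.
Pdgfa, first start, chr5:138994282-138994531: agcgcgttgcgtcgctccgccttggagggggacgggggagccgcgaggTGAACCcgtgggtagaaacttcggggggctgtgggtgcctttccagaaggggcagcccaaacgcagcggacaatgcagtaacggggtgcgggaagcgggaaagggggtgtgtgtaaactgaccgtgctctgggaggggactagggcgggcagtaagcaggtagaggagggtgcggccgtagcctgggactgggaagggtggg
Pdgfa, second start, chr5:138994945-138995194: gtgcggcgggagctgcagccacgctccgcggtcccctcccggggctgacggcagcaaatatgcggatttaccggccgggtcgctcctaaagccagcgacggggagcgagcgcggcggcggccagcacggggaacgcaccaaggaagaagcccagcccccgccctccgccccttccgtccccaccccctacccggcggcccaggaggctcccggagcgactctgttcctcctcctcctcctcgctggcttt
The match was GGTTCA on the opposite strand, with its first base at -202 from the start. GGTTCA was found in 8.85% of 32851 promoters of this length, any of the 4 hexamers in 38.6%, and 2 of them as a direct repeat 3 bases apart, the full response element, in 0.0396%. No such repeat was found in the windows of Pdgfa, Pdgfc, Pdgfd and Pdgfra, and those of Pdgfb and Pdgfrb were not analysed here. A match or its lack describes these letters only.

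In the wounds all 6 members were seen. Pdgfa was at 22.9 (21.3 to 24.7) CPM in wounds with control DCs, 17.4 (16.2 to 18.6) with Ndrg2-KO DCs and 28.5 (26.8 to 30.4) with blank hydrogels. Pdgfb was at 9.13 (8.08 to 10.3), 6.36 (5.67 to 7.10) and 18.4 (17.0 to 19.9) CPM, and Pdgfc at 21.8 (20.2 to 23.5), 17.2 (16.1 to 18.4) and 19.1 (17.7 to 20.6). Blank wounds led for Pdgfa and Pdgfb, and wounds with Ndrg2-KO DCs were lowest for these 3 ligands, though not beyond the interval of blank wounds for Pdgfc.

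Pdgfd and both receptors were highest in wounds with control DCs. Pdgfd was at 9.40 (8.33 to 10.6), 8.20 (7.42 to 9.05) and 5.41 (4.67 to 6.24) CPM in the order used for the other ligands, the first pair with overlapping intervals. Pdgfra was at 107 (104 to 111), 69.1 (66.8 to 71.5) and 70.3 (67.5 to 73.1) CPM, and Pdgfrb at 27.0 (25.2 to 29.0), 14.9 (13.8 to 16.0) and 22.7 (21.2 to 24.4). Fibroblast-like cells, the main carriers of these genes as described next, made up 24.1%, 8.13% and 9.46% of the cells in the same order, and neutrophil-like cells 23.5%, 50.9% and 45.5%. At the level of a library, fewer cells of a type and less RNA per cell cannot be told apart.

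None of the 6 members was called apart between wounds with Ndrg2-KO DCs and control DCs: 0 were at least 2-fold higher, against 4.39% of 13358 genes, and 0 lower, against 6.22%. All 6 log2 differences lay below 0, from -0.20 (-0.42 to 0.03) for Pdgfd to -0.64 (-0.71 to -0.57) for Pdgfra and -0.86 (-1.01 to -0.71) for Pdgfrb, where the median of all genes was -0.15. With each cell weighted equally, 4 members were at least 2-fold lower, Pdgfb at -1.32, Pdgfc at -1.03, Pdgfra at -1.25 and Pdgfrb at -1.53 on the log2 scale, against 17% of all genes lower, 2.85% higher and a median of -0.45 at that weighting. Without the highest 6% of doublet scores, Pdgfb was at 0.11 and Pdgfa at 0.007, so that not all 6 lay below 0. Between blank and control DC wounds, 1 member, Pdgfb, was at least 2-fold higher at 1.01 (0.81 to 1.22), against 3.71% of 13137 genes, and 0 were lower, against 3.89%. The interval of Pdgfb spans the 2-fold line, and with each cell weighted equally, where 2.44% of all genes were higher and 11.5% lower, its log2 difference was 0.14. Both comparisons share the wounds with control DCs.

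**Figure D3:**
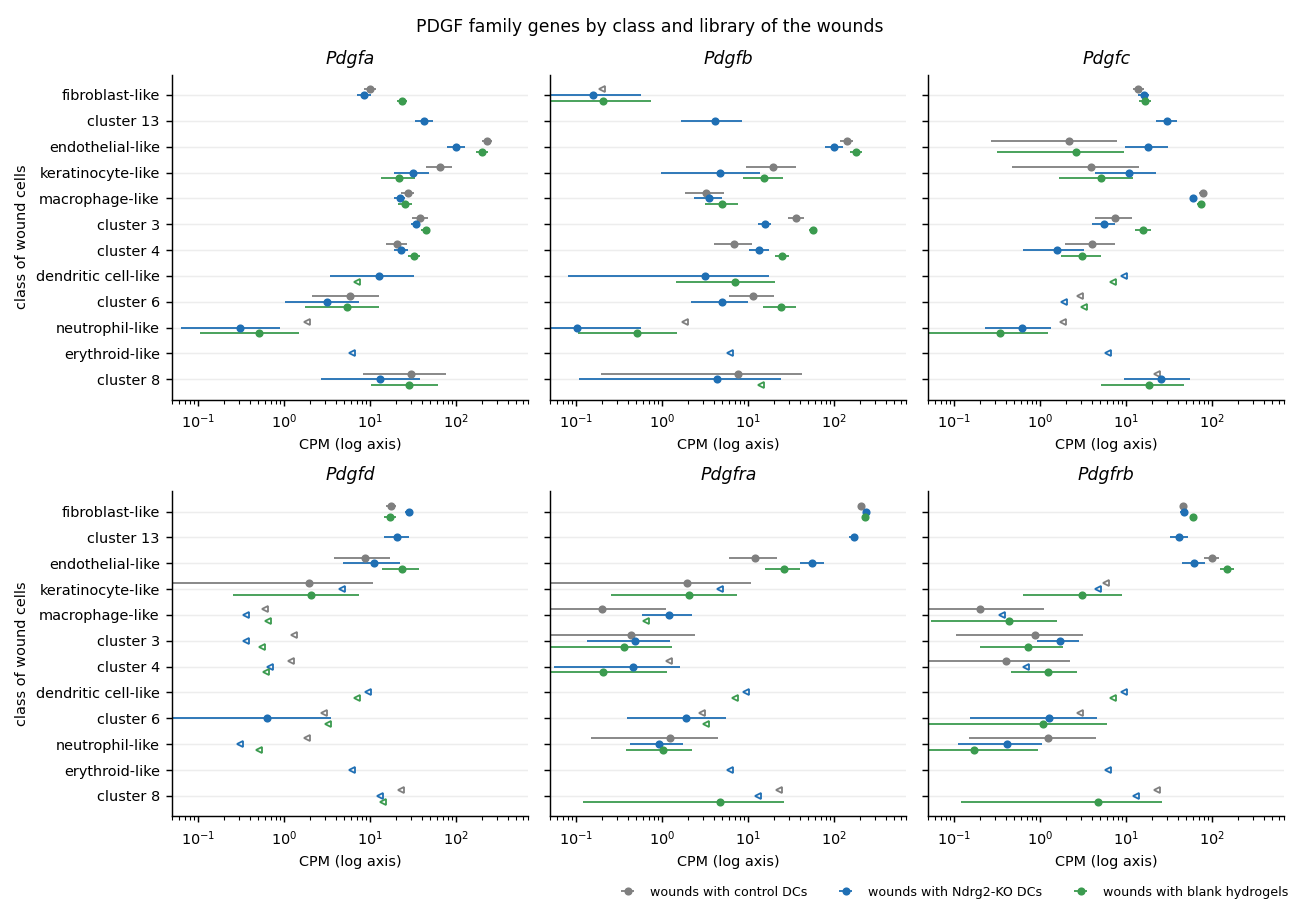
CPM of the 6 members in the wound classes, by library where it gave at least 20 cells, on log axes, with exact 95% Poisson intervals and open triangles at the level of 3 UMIs where none were seen. Pdgfra, Pdgfrb and Pdgfd were high in fibroblast-like cells, Pdgfc in macrophage-like cells, and Pdgfa and Pdgfb in endothelial-like cells.

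The wound cells formed 14 clusters, each with cells of every wound library. They were named neutrophil-like (0 and 1), fibroblast-like (2), macrophage-like (5 and 7), endothelial-like (9, which also held 6 pericyte or smooth muscle markers), keratinocyte-like (10, which also held 5 T cell markers), erythroid-like (11) and dendritic cell-like (12). Clusters 3, 4, 6, 8 and 13 stayed unnamed. Cluster 3 was led by Mmp12, Ppbp, Mmp13 and Arg1, cluster 4 by Ear2 and MHC class II genes, cluster 6 by granzyme genes and Il17a, and cluster 13, with Col1a1 and Fbn1 among its markers, by genes of cell division. Cluster 3 passed 2 platelet markers, Pf4 and Ppbp, and 2 macrophage markers, too few for a name. Cluster 4 passed 4 monocyte markers, Ly6c2, Ccr2, Plac8 and Chil3, and 3 of the dendritic cell list.

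Pdgfa was spread over many wound classes. Pooled over the wounds, cluster 3 held 24.2% (22.6 to 25.97) of its UMIs, fibroblast-like cells 19.1% (17.6 to 20.7), and macrophage-like and endothelial-like cells 17.3% and 17.3%, although the last were only 1.75% of the cells. The order differed by library. Endothelial-like cells led with 31.1% (27.7 to 34.8) in wounds with control DCs, where cluster 3 held 12.8% (10.4 to 15.5). That lead was of the whole cluster, since its cells with endothelial markers, described below, held 19.4% there, beside 21.7% in fibroblast-like and 20.1% in macrophage-like cells, and 8.65% over the libraries. Cluster 3 led with 33.0% (29.8 to 36.2) with Ndrg2-KO DCs, and with blank hydrogels its 24.6% (21.95 to 27.4) overlapped the 22.8% (20.2 to 25.5) of fibroblast-like cells. Endothelial-like cells had the highest level, 232 (201 to 265) CPM in wounds with control DCs, 99.9 (78.0 to 126) with Ndrg2-KO DCs and 200.4 (170.0 to 235) with blank hydrogels. There wounds with Ndrg2-KO DCs were the lowest, by -1.21 (-1.62 to -0.82) on the log2 scale against control DCs. Cluster 3 was at 38.0 (30.5 to 46.9), 34.1 (30.2 to 38.3) and 44.6 (39.2 to 50.6) CPM in the same order. Macrophage-like cells were at 24.5 (22.3 to 26.9) CPM and cluster 4 at 26.6 (23.7 to 29.7) CPM over the libraries.

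Fibroblast-like cells differed in Pdgfa by library. They were at 9.95 (8.41 to 11.7) CPM with control DCs, 8.53 (7.004 to 10.3) with Ndrg2-KO DCs and 23.5 (20.5 to 26.8) with blank hydrogels. The blank value was 2.36-fold that with control DCs, or 1.24 (0.93 to 1.55) on the log2 scale. Keratinocyte-like cells were at 64.9 (44.7 to 91.2), 31.3 (19.1 to 48.3) and 21.8 (13.5 to 33.3) CPM, from 23, 43 and 65 cells. Neutrophil-like cells had 6 Pdgfa UMIs in 4901 cells, or 0.348 (0.128 to 0.757) CPM.

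Pdgfb was held mostly by cluster 3 and by endothelial-like cells, and less by cluster 4. Pooled over the wounds, cluster 3 held 42.9% (40.1 to 45.7) of its UMIs and endothelial-like cells 27.9% (25.4 to 30.5). Blank wounds gave 643 of the 1227 UMIs. In wounds with control DCs the order was the opposite, 30.6% (25.2 to 36.5) in cluster 3 and 48.0% (41.9 to 54.1) in endothelial-like cells, against 41.2% (35.7 to 46.9) and 23.0% (18.5 to 28.1) with Ndrg2-KO DCs and 48.8% (44.9 to 52.8) and 21.8% (18.6 to 25.2) with blank hydrogels. The level was highest in endothelial-like cells, at 142 (119 to 169) CPM with control DCs, 101 (79.2 to 128) with Ndrg2-KO DCs and 182 (153 to 215) with blank hydrogels. Cluster 3 was at 36.3 (28.9 to 45.0), 15.6 (13.03 to 18.5) and 57.2 (51.0 to 63.9) CPM, lowest with Ndrg2-KO DCs, by -1.22 (-1.63 to -0.80) on the log2 scale against control DCs. Cluster 4 held 16.1% (14.1 to 18.3) of the Pdgfb UMIs over the libraries. It was at 6.87 (4.002 to 11), 13.6 (10.4 to 17.5) and 25.01 (20.8 to 29.9) CPM. There both other wounds were above control DC wounds, by 0.98 (0.19 to 1.85) and 1.86 (1.13 to 2.69).

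Of the named classes, macrophage-like (clusters 5 and 7), dendritic cell-like and fibroblast-like cells held little Pdgfb. Unnamed cluster 3 passed 2 macrophage and 2 platelet markers, so this does not speak for all wound macrophages. Macrophage-like cells were at 3.80 (2.95 to 4.82) CPM over the libraries and dendritic cell-like cells at 6.78 (2.49 to 14.7), from 6 UMIs in 70 cells. Fibroblast-like cells had 4 UMIs among 37315271, or 0.107 (0.0292 to 0.274) CPM. Of the platelet genes, Pf4 was at 3343 and Ppbp at 100.3 CPM in cluster 3, while the defining genes Gp9 and Gp1bb were at 0, Itga2b at 0.249 and Treml1 at 0.436 CPM. In macrophage-like cluster 5, Pf4 was at 2743 and Ppbp at 6.27 CPM.

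Pdgfc was mainly a transcript of macrophage-like cells. They held 57.2% (55.1 to 59.3) of its UMIs, and fibroblast-like cells 26.5% (24.7 to 28.5). The macrophage-like level was 78.3 (70.7 to 86.5) CPM with control DCs, 60.8 (55.6 to 66.3) with Ndrg2-KO DCs and 74.2 (66.5 to 82.5) with blank hydrogels. Wounds with Ndrg2-KO DCs thus stood below those with control DCs, by -0.36 (-0.56 to -0.17) on the log2 scale. Of the clusters in the class, cluster 5 was at 42.4 (37.0 to 48.3) against 66.0 (57.8 to 75.2) CPM, a difference of -0.64 (-0.91 to -0.37), and cluster 7, with the higher level, at 92.7 (82.2 to 104) against 107 (90.8 to 124), where -0.20 (-0.49 to 0.09) included 0. Whether the clusters differ in this was not tested. Fibroblast-like cells were at 14.0 (12.1 to 16.0), 16.1 (14.0 to 18.5) and 16.6 (14.1 to 19.3) CPM with overlapping intervals. Cluster 3 was at 7.43 (4.33 to 11.9), 5.56 (4.07 to 7.42) and 15.8 (12.7 to 19.5) CPM in the same order, and cluster 4 was at 2.73 (1.87 to 3.85). No Pdgfc UMI was seen in dendritic cell-like cells or cluster 6, where 3 UMIs would be 3.39 and 0.846 CPM.

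Most Pdgfd UMIs were in fibroblast-like cells. They held 90.1% (88.0 to 92.0) of its UMIs, at 17.5 (15.5 to 19.8) CPM with control DCs, 28.2 (25.3 to 31.2) with Ndrg2-KO DCs and 17.1 (14.6 to 19.9) with blank hydrogels. The value with Ndrg2-KO DCs was 1.61-fold that with control DCs, or 0.68 (0.45 to 0.92) on the log2 scale, whereas the whole libraries differed by -0.20. Endothelial-like cells were at 14.2 (9.83 to 19.8) CPM over the libraries. No Pdgfd UMI was seen in macrophage-like cells, neutrophil-like cells, cluster 3 or cluster 4, where 3 UMIs would be 0.168, 0.174, 0.187 and 0.256 CPM.

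Both receptors were genes of fibroblast-like cells, with Pdgfrb also in the endothelial-like cluster at 105 (92.2 to 119) CPM over the libraries. Fibroblast-like cells held 92.1% (91.5 to 92.6) of the Pdgfra UMIs and 80.2% (78.5 to 81.8) of those of Pdgfrb. Their Pdgfra level was 207 (199.43 to 214) CPM with control DCs, 238 (229.8 to 247) with Ndrg2-KO DCs and 229 (219 to 239) with blank hydrogels, and their Pdgfrb level 45.8 (42.4 to 49.4), 46.8 (43.1 to 50.7) and 60.9 (56.0 to 66.0). Inside fibroblast-like cells, wounds with Ndrg2-KO DCs thus differed from those with control DCs by 0.20 (0.13 to 0.28) for Pdgfra and 0.03 (-0.13 to 0.19) for Pdgfrb on the log2 scale, where the whole libraries differed by -0.64 and -0.86. Cluster 13 was at 173 (159.7 to 188) CPM of Pdgfra and 48.0 (41.0 to 55.9) of Pdgfrb. In macrophage-like and neutrophil-like cells Pdgfra stood at 0.615 and 0.985 CPM, the former with 10 of its 11 UMIs from wounds with Ndrg2-KO DCs, and Pdgfrb at 0.168 and 0.406.

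Fibroblast-like cells with UMIs of both receptors were counted at full and at equal depth. Of 1253 fibroblast-like cells with a median of 27944 UMIs, 740 (59.1%) had both, 451 had Pdgfra without Pdgfrb, 22 had Pdgfrb without Pdgfra and 40 had neither. With each of these cells drawn to 1000 UMIs, 14 (1.12%) had both. Of 4901 neutrophil-like cells with a median of 3091 UMIs, 0 had both, 17 had Pdgfra and 7 Pdgfrb. At that depth 0 cells allow up to 0.0612% (3 cells of the total) with UMIs of both, which says nothing of cells that express both. At 1000 UMIs a cell, Pdgfra was seen in 20.3% (18.1 to 22.6) of fibroblast-like and 0.145% (0.0583 to 0.298) of neutrophil-like cells, and Pdgfrb in 4.31% (3.25 to 5.59) and 0.0621% (0.0128 to 0.181).

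The endothelial-like cluster was also split by each cell's own markers, a step chosen after the values were seen. Cells with endothelial markers, 54 in number, were at 241 (213 to 272) CPM of Pdgfb and 198.97 (173 to 227) of Pdgfa over the libraries. Cells with pericyte markers, 12 in number, were at 284 (223 to 357) CPM of Pdgfa and 11.5 (2.38 to 33.7) of Pdgfb from 3 UMIs. Pdgfb was thus higher with endothelial than with pericyte markers, whereas Pdgfa was high with either. The other 127 cells met neither rule, carried Col1a1 at 10009 CPM, and stood at 71.6 (56.2 to 89.8) CPM of Pdgfb.

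Pdgfrb is given by library, with few cells behind each value. Cells with pericyte markers, 6, 3 and 3 in number, were at 501 (373 to 659) CPM with control DCs, 121 (64.6 to 207) with Ndrg2-KO DCs and 410.1 (254 to 627) with blank hydrogels, cells that met neither rule at 67.2 (41.1 to 104), 88.7 (57.4 to 131) and 209 (169 to 255). Cells with endothelial markers were at 38.7 (23.7 to 59.8) and 18.6 (6.84 to 40.6) CPM in wounds with control DCs and Ndrg2-KO DCs, and had 0 UMIs in blank wounds, where 3 would be 11.4 CPM. Pericyte markers thus went with a higher level beyond the interval of the other cells in wounds with control DCs, while in the other wounds the interval overlapped that of cells meeting neither rule. By number, 140 Pdgfrb UMIs of the cluster were in cells meeting neither rule, 85 in cells with pericyte markers and 26 in cells with endothelial markers.

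By library, Pdgfb was at 205 (168 to 248) CPM in 27 cells with endothelial markers from wounds with control DCs, 196 (150.3 to 250.3) in 17 with Ndrg2-KO DCs and 366 (296 to 447) in 10 with blank hydrogels. Pdgfa in these cells was at 256 (214 to 303), 115 (80.9 to 158) and 191 (141 to 251) CPM. Wounds with Ndrg2-KO DCs had less Pdgfa than control DC wounds, while their Pdgfb intervals overlapped. For Pdgfb the CPM was highest in blank wounds, but with the cells of the whole endothelial-like cluster drawn to 1000 UMIs each, it was seen in 12 of 58 cells (20.7%, 11.2 to 33.4) with control DCs, 3 of 63 cells (4.76%, 0.993 to 13.3) with Ndrg2-KO DCs and 1 of 45 cells (2.22%, 0.0562 to 11.8) with blank hydrogels. Blank wounds were thus first by CPM and last by share of cells, and no order of the wounds is read from either.

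**Figure D4:**
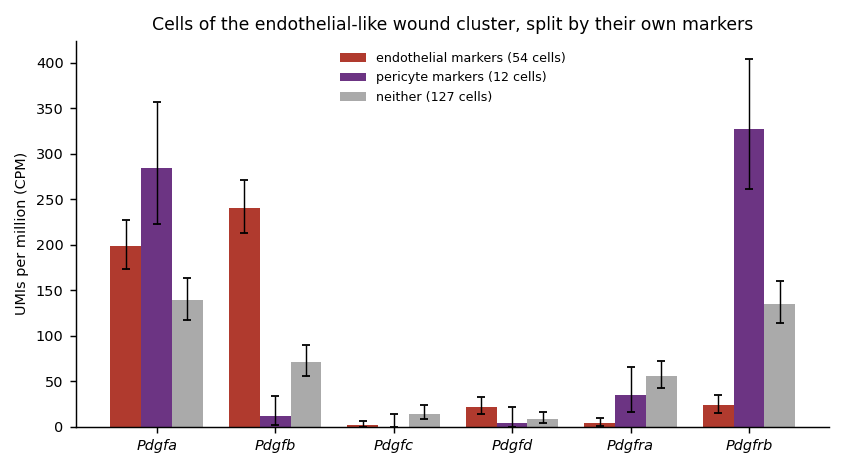
CPM (bars from 0) of the 6 members in the cells of the endothelial-like cluster split by their own markers, over the 3 wound libraries, with exact 95% Poisson intervals. Pdgfb was at 241 CPM with endothelial markers and Pdgfrb at 327 CPM with pericyte markers.

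At a finer resolution the fibroblast-like cells fell into sub-cluster 3, with 467, 278 and 321 cells from wounds given control DCs, given Ndrg2-KO DCs or left blank, and sub-cluster 13, with 2, 184 and 1 cells. Sub-cluster 13 had Reg3g, Ngfr, Pgr and Greb1 among its leading genes. Within wounds with Ndrg2-KO DCs, its Pdgfra was at 349.9 (333 to 367) CPM against 170.2 (161 to 179.5) in sub-cluster 3, or 2.06-fold higher. Its Pdgfa was at 1.65 (0.714 to 3.26) against 12.7 (10.4 to 15.5) CPM and its Pdgfc at 3.102 (1.74 to 5.12) against 24.05 (20.8 to 27.7), or 7.69-fold and 7.75-fold lower. The sub-cluster thus carried more Pdgfra and less Pdgfa and Pdgfc, while Pdgfb had 1 UMI in each sub-cluster. Pdgfd, at 29.4 (24.7 to 34.6) against 27.4 (23.9 to 31.3) CPM, and Pdgfrb, at 50.5 (44.3 to 57.2) against 44.6 (40.0 to 49.5), had overlapping intervals. A sub-cluster held almost wholly by 1 library may be that library, not a type.

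Leaving sub-cluster 13 out, a step also chosen after the values were seen, changed the comparison of fibroblast-like cells between wounds with Ndrg2-KO DCs and control DCs. The log2 difference of Pdgfra moved from 0.20 (0.13 to 0.28) to -0.26 (-0.35 to -0.16), that of Pdgfc from 0.21 (-0.08 to 0.49) to 0.78 (0.49 to 1.08) and that of Pdgfa from -0.22 (-0.59 to 0.14) to 0.35 (-0.03 to 0.72). Pdgfd was at 0.64 (0.38 to 0.91) and Pdgfrb at -0.04 (-0.23 to 0.15) without it. The direction of Pdgfra therefore rested on sub-cluster 13, and the excess of Pdgfd did not. The higher Pdgfa of blank wounds was 1.24 (0.93 to 1.55) in sub-cluster 3 alone.

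**Figure D5:**
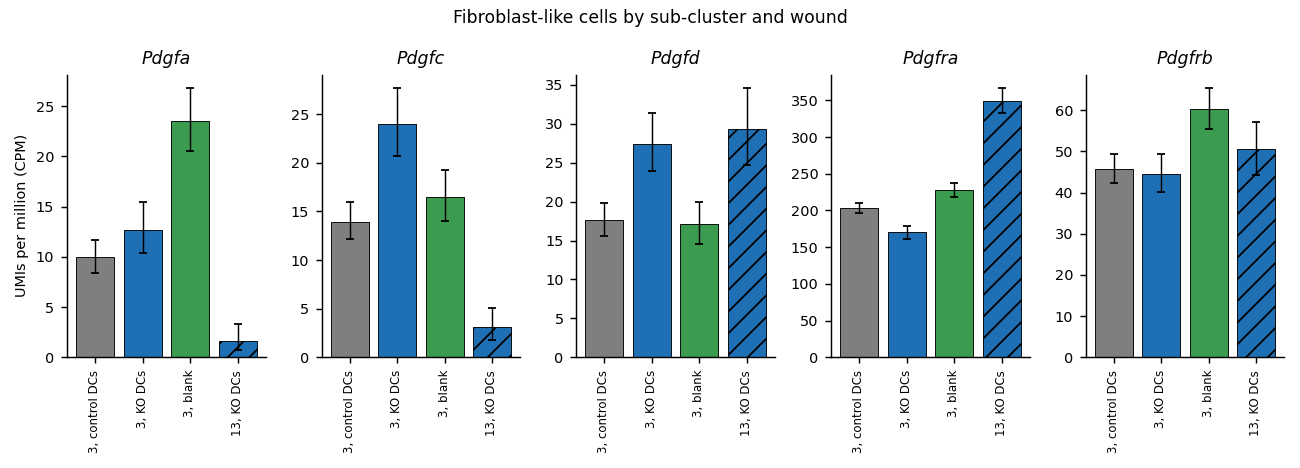
CPM (bars from 0) of 5 members in fibroblast-like sub-cluster 3 of each wound and sub-cluster 13 of wounds with Ndrg2-KO DCs (hatched), with exact 95% Poisson intervals. In sub-cluster 13 of wounds with Ndrg2-KO DCs, Pdgfra was above sub-cluster 3 while Pdgfa and Pdgfc were below it.

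Genes that process the ligands, bind them or carry the receptor signal were taken from a list of 33. In VD3 stimulated against untreated DCs, 0 of the 29 with enough UMIs were at least 2-fold higher and 3 lower, against 4.18% and 7.44% of all genes, with a list median of -0.07 beside -0.08 for all genes on the log2 scale. Among the lower genes were Plau, the urokinase that can open PDGF-D, at 0.696 against 5.08 CPM, and Sparc, a matrix protein that binds PDGF, with 1 against 112 UMIs, a log2 difference of -6.62 (-11.94 to -4.11). The fibroblast genes listed above moved with Sparc, summing to 2.98, 0.163 and 0.355 CPM in untreated, VD3 stimulated and Ndrg2-KO DCs. Their part in it was not tested. In Ndrg2-KO against untreated DCs, 2 of 30 were higher and 2 lower, against 10.2% and 9.28% of all genes, with a median of 0.18 beside -0.06. Lrp1, an endocytic co-receptor of PDGFRβ, was at 118 against 50.5 CPM and the adaptor Gab1 at 7.97 against 2.58, while Sparc had 1 against 112 UMIs and the kinase subunit Pik3r1 was at 63.6 against 129 CPM.

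Ndrg2-KO against VD3 stimulated DCs gave 5 of 28 genes of the list higher and 2 lower, against 13% and 9.21% of all genes, with a median of 0.31 beside -1.7e-05 for all genes. Among the higher genes, Plau was at 7.59 against 0.696 CPM and the kinase Src at 19.9 against 9.10, beside Lrp1 and Gab1. The lower genes were the adaptor Nck2, at 5.21 against 15.1 CPM, and Pik3r1, at 63.6 against 201.

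In wounds with Ndrg2-KO DCs against control DCs, 0 of 33 genes of the list were higher and 2 lower, against 4.39% and 6.22% of all genes, with a median of -0.24 beside -0.15. The convertase Pcsk6 was at 15.3 against 39.7 CPM and Cspg4, the pericyte proteoglycan NG2, at 1.06 against 2.90. In blank against control DC wounds, 0 were higher and 1 lower, against 3.71% and 3.89% of all genes, Sparc at 3345 against 6891 CPM, with a median of -0.12 beside -0.04. The fibroblast genes summed to 52239, 23205 and 23639.9 CPM with control DCs, with Ndrg2-KO DCs and in blank wounds, and their part in these differences was not tested. The counts of the list carry no test, and the genes named from it are given as values only.

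The genes most like each member were found by Pearson's r of log2(CPM + 1) over 16 culture or 14 wound clusters, which share libraries and depth, as a description. In the cultures they were Mpzl2 (0.90), Hoga1 (0.90) and Klhl33 (0.87) for Pdgfa, Ift122 (0.90), Gbp3 (0.89) and Dtx3 (0.88) for Pdgfb, and Ace (0.93), Efemp2 (0.90) and Gna13 (0.89) for Pdgfc. In the wounds they were Adam10 (0.95), Map4k3 (0.95) and Cd151 (0.95) for Pdgfa, Itga6 (0.88), Pald1 (0.86) and Kank3 (0.86) for Pdgfb, and, among others, Myo7a (0.95) and Epb41l1 (0.95) for Pdgfc. Tril (0.998), Slit2 (0.997) and Plac9b (0.996) were most like Pdgfd, Ssc5d (0.99), Flnc (0.99) and Spon2 (0.99) most like Pdgfra, and Armcx1 (0.99), Dnm3os (0.98) and Pcdhb17 (0.98) most like Pdgfrb.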

How the data were processed

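The libraries were made with 10x Genomics droplets, and the authors deposited a matrix of raw UMI counts per gene and barcode for each sample, made with Cell Ranger 3.1.0 for the cultures and 6.0.0 for the wounds per the file headers. The labels name Seurat 3.1.1 and mm9, the study's methods mm10, and coordinates and sequences here are those of GRCm38. Counts were used as deposited. Cells were kept as stated in the report, log-normalized to 10000 UMIs, and clustered separately for cultures and wounds on 2000 variable genes without the members, 15 principal components, 15 neighbours and Louvain resolution 0.5, with Seurat 5.3.0 in R 4.3.3, Matrix 1.6.5, and Python 3.11.15, NumPy 2.4.6, pandas 2.3.3, SciPy 1.17.1 and scanpy 1.11.5. A cluster took a name from at least 3 markers of a list at 50 CPM and 2-fold over the other cells, unless the name failed on its leading 10 genes or its depth. Scrublet marked at most 0.873% of the cells of a library, which is too few to rely on, and none were removed. No map from cells to mice was used, so each condition is 1 sample. Intervals are exact Poisson for CPM, conditional binomial for ratios and exact binomial for shares. The ratio intervals and calls were run on simulated Poisson counts. Those counts hold no spread between cells, animals or cultures, so the run checks the calculation only.

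The members, the pathway list and the marker lists were chosen with earlier results of these data known. Named genes are all members, genes of the list called at 2-fold, and the 3 genes most like each member with at least 200 UMIs, some of which are not reported here. Alternatives were a resolution of 1.0, 30 components, a 5% mitochondrial limit, the highest 6% of doublet scores left out, classes from each cell's own markers, means over cells, median-ratio size factors, CPM without mitochondrial and ribosomal protein genes, all barcodes, a lower limit of 300 UMIs, and other drawn depths. Promoter letters are RefSeq's for GRCm38.p6, matched for 4 members.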

Additional observations from a re-analysis of the deposited data

Results flagged for a closer look

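The Pdgfb difference between wounds with Ndrg2-KO DCs and control DCs pointed in opposite directions in 2 unnamed wound clusters: the log2 difference was 0.98 (0.19 to 1.85) in cluster 4, led by Ear2 and MHC class II genes, and -1.22 (-1.63 to -0.80) in cluster 3, led by Mmp12 and Ppbp. For Pdgfc the same comparison gave 3.07 (0.92 to 6.26) in endothelial-like cells, from 13 against 2 UMIs, and -0.36 (-0.56 to -0.17) in macrophage-like cells. All 13 of those UMIs with Ndrg2-KO DCs were in cells of the cluster that met neither the endothelial nor the pericyte rule. Both pairs are listed because the counting intervals lie on opposite sides of 0. With 1 library a condition, neither difference between clusters was tested.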

How the results depend on the processing

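Of the alternatives to the members' log2 differences between whole libraries, 113 stayed within the counting interval, 41 moved beyond it, and no called difference changed sign. The range was 2.71 to 3.33 for Pdgfa, 1.60 to 1.88 for Pdgfb and -1.69 to -1.31 for Pdgfc in VD3 stimulated against untreated DCs, and 1.19 to 1.64 for Pdgfb and 2.09 to 2.65 for Pdgfc in Ndrg2-KO against untreated DCs. In the wounds, Pdgfb ranged over -1.32 to 0.11 with Ndrg2-KO DCs and 0.14 to 1.68 with blank hydrogels. Weighting each cell equally called 4 members apart with Ndrg2-KO DCs, all lower, against 17% of all genes lower at that weighting, and 2 lower with blank hydrogels, against 11.5%, where Pdgfd was at -1.24 and Pdgfra at -1.07. The leading shares moved as follows, and the cause was not tested. In the cultures, Pdgfa went from 32.6% in cluster 7 to 38.8% with 30 components, 0% under 5% mitochondrial UMIs, where 237 of the 1205 cells of cluster 7 remained and formed no cluster of their own (153 joined one with 8.05% of the remaining Pdgfa UMIs), and 31.3% without high doublet scores. Pdgfb went to 57.9%, 53.7% and 61.6% under the 5% limit, without high doublet scores and with each cell's own markers, and Pdgfc to 48.5% and 19.7% under the 5% limit and with own markers. In the wounds, a resolution of 1.0 gave 21.6% for Pdgfa, 39.7% for Pdgfb and 60.0% for Pdgfc. With 30 components the shares were 28.6% for Pdgfa, 47.9% for Pdgfb, 96.2% for Pdgfd, 98.8% for Pdgfra and 88.1% for Pdgfrb. Under 5% mitochondrial UMIs they were 27.0% for Pdgfa, 96.8% for Pdgfd, 99.3% for Pdgfra and 94.3% for Pdgfrb. Without high doublet scores they were 30.8% for Pdgfa, 53.7% for Pdgfb, 90.8% for Pdgfra and 73.9% for Pdgfrb, and with own markers 64.8% for Pdgfc, 94.95% for Pdgfd, 97.4% for Pdgfra and 87.6% for Pdgfrb. Own markers gave no value for unnamed leading clusters. No paired analysis was possible because each condition has 1 library, which also leaves the spread between animals and cultures unknown.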
